A study of Mus musculus with 7 samples.

Results

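Ipo4 belongs to the beta family of nuclear import receptors, and the 10 genes described here are its importins and transportins: Kpnb1, Tnpo1, Tnpo2, Ipo4, Ipo5, Ipo7, Ipo8, Ipo9, Ipo11 and Ipo13. They were taken by name from a count table of 34591 mouse genes in 7 mouse Group 3 medulloblastomas (G3 MBs), and all 10 were listed and passed the filter on low counts. The set was chosen by name around Ipo4, and Ipo4 was selected on its measured difference between the groups, where it ranked 7 by p among the lower genes, so the differences of the members between the groups are given as a description and without a p-value.

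All 7 tumors came from 1 tumorsphere line, # 19568. It was grown from cerebellar granule neuron progenitors of Trp53-/-; Cdkn2c-/- mice after transduction with an MSCV retrovirus for Myc. For this line the methods of the study name Myc-IRES-GFP, while a figure legend names myc-IRES-RFP. Tumorspheres were infected with a lentivirus, grown without sorting in the cortex of CD1-nu/nu hosts, and the tumors were frozen as chunks once the hosts became moribund. The 4 tumors labelled WDR11OE received human WDR11 under the EF1 promoter with T2A-copGFP. The 3 control tumors have no treatment in the labels, while the protocol and the methods of the study name the empty vector pCDH-EF1-MCS-T2A-copGFP. Replicate numbers are names only, and p-values measure the spread between tumors of this single line.

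The human WDR11 row did not separate the groups. It held 73, 92 and 102 counts in control replicates 1 to 3 and 185, 169, 99 and 57 counts in WDR11OE replicates 1 to 4. As CPM, counts scaled to a common library total, the row was at 2.03, 2.19 and 3.13 CPM in the controls and at 4.38, 2.11, 3.05 and 0.624 CPM in the tumors labelled WDR11OE. WDR11OE replicate 4 was the lowest of all 7 tumors, so the groups are named below as the libraries were labelled, and every direction rests on those labels. The mouse Wdr11 row was at 58.3 to 59.3 CPM in the controls and 61.0 to 68.9 CPM in the tumors labelled WDR11OE. Its groups did not overlap, which held for 23.6% of all genes tested in the higher direction. Mouse Wdr11 did not pass an adjusted p under 0.05 (0.0910 by edgeR). The qRT-PCR and immunofluorescence of WDR11 in the study were not analysed here. Total counts were 33417073 to 41397335 in the controls and 32115996 to 87141248 in the tumors labelled WDR11OE. Library names run in a different series for each group, so series and condition cannot be told apart.

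Tumor chunks hold host cells as well as tumor cells, and in such bulk RNA fewer cells of a type and less RNA per cell cannot be told apart. Of 8 granule neuron progenitor markers, Atoh1 was at 0 in all 7 tumors and Barhl1 was at 0 in all tumors except WDR11OE replicate 1, at 0.0237 CPM. The summed level of the 8 was 110.3 to 168 CPM in the controls and 50.5 to 84.5 CPM in the tumors labelled WDR11OE. Gli2, an effector of hedgehog signaling, was the 1 of 6 tested markers that passed, as lower. It was at 74.8 to 131 CPM against 24.4 to 41.4 CPM and made up most of the sum in each control. The other 5 tested markers did not pass and their groups overlapped. Of these, Zic1 had a log2 fold change below 0, and Zic2, Pax6, Neurod1 and Mycn above 0. The sum therefore does not stand for the markers as a set. The summed level of 8 skeletal muscle markers was 1.29 to 2.00 CPM in the controls and 33.3 to 103 CPM in the tumors labelled WDR11OE, where 6 of 6 tested markers were higher while the muscle regulators Myog and Myod1 stayed at or under 0.0556 CPM. The sum of 8 mature neuron markers ran from 69.6 to 454 CPM in the controls and from 12.4 to 650 CPM in the tumors labelled WDR11OE, and 0 of 8 passed the test. The endothelial sum was 112 to 142 CPM in the controls and 86.4 to 95.8 CPM in the tumors labelled WDR11OE. Of its 6 markers, 2 passed, Cdh5 and Flt1, both as lower. Pecam1, Kdr, Cldn5 and Tek did not pass and their groups overlapped. Of these, Kdr and Cldn5 had a log2 fold change below 0, and Pecam1 and Tek above 0. This sum does not stand for its markers as a set either. The astrocyte, oligodendrocyte and microglial sums overlapped between the groups. Of 6 astrocyte markers 1 passed, S100b, as higher, at 37.9 to 57.3 CPM in the controls against 82.9 to 92.1 CPM. No oligodendrocyte or microglial marker passed. Myc, the oncogene carried by the retrovirus, lay at 812 to 1109 CPM in the controls and at 278 to 431 CPM in the tumors labelled WDR11OE. Trp53 and Cdkn2c, the genes of the -/- genotype, had reads in every tumor. Trp53 was at 45.0 to 53.9 CPM in the controls and 27.8 to 35.6 CPM in the tumors labelled WDR11OE (adjusted p = 0.00762 by edgeR). Cdkn2c was at 15.5 to 17.4 against 15.2 to 26.8 CPM and did not pass. The source of these reads was not tested. The part of the cell types above and of Myc in the values below was not tested.

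Import receptors of the beta family bind cargo in the cytoplasm, pass through the nuclear pore by touching the repeats of nucleoporins, and let the cargo go in the nucleus when they bind Ran loaded with GTP. Kpnb1 works mostly through importin alpha adaptors, which read the classical nuclear localization signal, whereas transportins and most other importins bind their cargo directly. Histones, ribosomal proteins and RNA-binding proteins are among the most abundant cargoes of the family, which is expressed in nearly every cell.

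The promoters of 3 members are shown because Ipo4 and Ipo9 had the lower levels with the narrowest relative error and Ipo11 was the member with higher levels in the tumors labelled WDR11OE. Each stretch holds 250 bases before and 50 bases after the annotated start in RefSeq on GRCm38.p6, written 5′ to 3′ on the gene's strand, with motif matches in capitals. Ipo4 is at chr14:55635635-55635934, Ipo9 at chr1:135430450-135430749 and Ipo11 at chr13:106936909-106937208, all on the minus strand.
Ipo4: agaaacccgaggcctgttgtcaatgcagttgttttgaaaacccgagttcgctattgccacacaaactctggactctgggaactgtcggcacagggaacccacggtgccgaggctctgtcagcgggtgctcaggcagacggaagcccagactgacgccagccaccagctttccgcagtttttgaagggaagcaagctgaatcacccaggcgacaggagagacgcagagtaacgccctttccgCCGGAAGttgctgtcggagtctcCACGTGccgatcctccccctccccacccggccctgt
Ipo9: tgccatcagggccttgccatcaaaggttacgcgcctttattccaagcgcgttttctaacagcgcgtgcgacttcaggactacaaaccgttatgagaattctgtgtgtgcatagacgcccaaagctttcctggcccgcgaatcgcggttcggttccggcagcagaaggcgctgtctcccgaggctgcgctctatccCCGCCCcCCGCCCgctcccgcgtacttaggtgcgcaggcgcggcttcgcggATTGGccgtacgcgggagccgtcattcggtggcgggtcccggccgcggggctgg
Ipo11: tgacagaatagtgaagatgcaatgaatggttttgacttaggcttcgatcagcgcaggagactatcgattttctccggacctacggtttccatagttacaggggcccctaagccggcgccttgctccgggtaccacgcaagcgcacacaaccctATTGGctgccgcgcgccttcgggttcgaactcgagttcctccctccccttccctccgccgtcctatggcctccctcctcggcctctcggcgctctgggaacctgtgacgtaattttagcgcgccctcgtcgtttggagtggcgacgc
Counted from 1 at the 5′ end, the capitals in Ipo4 mark an ETS motif (CCGGAAG) at bases 242 to 248 and an E-box (CACGTG) at bases 265 to 270, which begins 14 bases past the start. In Ipo9 they mark GC boxes (GGGCGG) at bases 196 to 201 and 203 to 208 and a CCAAT box (CCAAT) that begins at base 247, all 3 read on the opposite strand. The Ipo11 promoter holds a CCAAT box at bases 154 to 158, also on the opposite strand.

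All 10 members matched the RefSeq table, with 14 promoters. Both strands were searched for 6 motifs, and over 32851 promoters the E-box was found in 7.15%, the ETS motif in 8.86%, the CCAAT box in 37.4% and the GC box in 35.7%. Among the members, the E-box was in a promoter of Ipo4, Ipo7 and Tnpo2, and the ETS motif in that of Ipo4 only. The CCAAT box was found for 6 genes (Ipo5, Ipo9, Ipo11, Kpnb1, Tnpo1 and Tnpo2) and the GC box for 6 (Ipo5, Ipo9, Ipo13, Kpnb1, Tnpo1 and Tnpo2). Counted by promoter, as the shares over all promoters are, the CCAAT box was in 7 of 14 and the GC box in 7 of 14. The E-box was in 3 of 14 and the ETS motif in 1 of 14. The 2 promoters of Ipo9 overlap. No promoter of a member held the E2F motif TTCCCGCC, present in 2.19% of all promoters, or the NRF1 motif, present in 0.971%. The GC box and the E2F motif share letters and can overlap. Median GC content was 61.8% over the 14 promoters and 52.7% over all promoters. These matches are letters in a window and say nothing of binding.

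Of the 10 members, 4 (Ipo4, Ipo9, Ipo13 and Tnpo2) passed an adjusted p under 0.05 as lower in the tumors labelled WDR11OE, against 15.8% of all genes tested, and 1 (Ipo11) passed as higher, against 18.1%. These 5 of 10 stand beside 33.9% of all genes that passed in either direction. In these same 5 genes the groups did not overlap, which held for 19.1% of all genes in the lower and 23.6% in the higher direction. Ipo4 alone also passed the 2-fold limit as lower, as did 3.45% of all genes, and no member passed it as higher, as did 2.36%. Nothing is read from these counts, since the members were chosen with this comparison known. The median log2 fold change of the 10 members was -0.11, beside 0.08 over all 17388 genes tested.

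**Figure D1:**
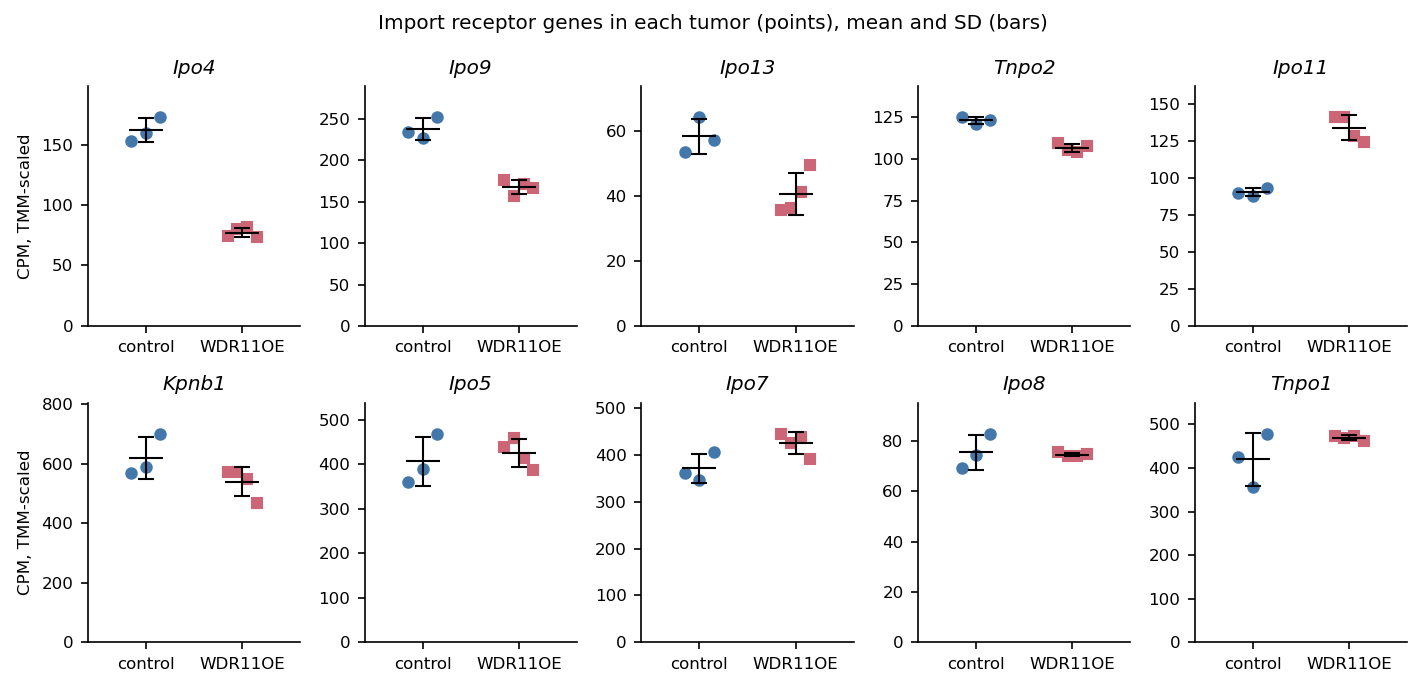
Level of each import receptor in CPM (y axis) in every control tumor (n = 3) and every tumor labelled WDR11OE (n = 4), with 1 panel a gene, 1 point a tumor and bars for the mean and SD of each group. The points of the groups lie apart for Ipo4, Ipo9, Ipo11, Ipo13 and Tnpo2 and overlap for Kpnb1, Ipo5, Ipo7, Ipo8 and Tnpo1.

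Ipo4 brings core histones and ribosomal proteins into the nucleus and had the widest distance between the groups among the members. Its level was 153, 159 and 173 CPM in control replicates 1 to 3 and 74.3, 79.9, 81.5 and 73.4 CPM in WDR11OE replicates 1 to 4. Every control tumor was above every tumor labelled WDR11OE, and within a group the tumors lay close together. The group means were 162 ± 9.85 CPM (SD, n = 3) and 77.3 ± 4.04 CPM (SD, n = 4), a 2.09-fold higher level in the controls. On the log2 scale the difference, WDR11OE minus control, was -1.07 with an SE of 0.07 and a 95% interval from -1.23 to -0.90. Between 2646 and 6698 reads per tumor lay behind these values, so counting error was small beside the spread between tumors.

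Ipo4 (ENSMUSG00000002319) lies at chr14:56244237-56256732 on the minus strand of NCBIM37, the build of the count table. At its right end it shares 685 exonic bases with Tm9sf1, a gene for a membrane protein on the same strand, between 56254802 and 56256732, and 15.1% of the 50-base stretches in the exons of Ipo4 are also found in Tm9sf1. Tm9sf1 was at 35.6 to 41.5 CPM in the controls and at 27.7 to 31.3 CPM in the tumors labelled WDR11OE, with a log2 fold change of -0.36 (SE 0.08, adjusted p = 0.0136 by edgeR). When the reads of both genes were summed, a choice made after seeing the data, the log2 fold change was -0.90. On the other side, 4 bases away and on the opposite strand, lies Rec8, a cohesin subunit of meiosis. Rec8 went the other way, from 1.0, 0.453 and 0.736 CPM in the controls to 9.16, 11.2, 4.87 and 2.57 CPM in the tumors labelled WDR11OE, with a log2 fold change of 3.25 (SE 0.59, adjusted p = 0.00575 by edgeR). The strand setting of the counting is not given, and without it reads of overlapping antisense genes cannot be told apart.

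Ipo9, a carrier of core histones and actin, followed Ipo4 in direction. Control replicates were at 235, 227 and 252 CPM and WDR11OE replicates at 177, 157, 171 and 166 CPM. The groups were well apart, with every control above every tumor labelled WDR11OE. The means were 238 ± 12.7 CPM (SD, n = 3) and 168 ± 8.37 CPM (SD, n = 4), and the log2 fold change was -0.50 (SE 0.07, 95% interval from -0.67 to -0.34). Ipo9 (chr1:137278889-137327076, minus strand, NCBIM37) shares no 50-base stretch with another gene.

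Ipo13 carries cargo in both directions, importing the SUMO-conjugating enzyme and exporting a translation initiation factor. Its levels were 53.7, 64.4 and 57.4 CPM in the controls and 35.7, 36.4, 41.3 and 49.6 CPM in the tumors labelled WDR11OE. WDR11OE replicate 4 stood nearest to the controls, just under the lowest of them. The log2 fold change was -0.52 (SE 0.13, 95% interval from -0.83 to -0.22), and Ipo13 no longer passed when control replicate 2 was left out. It lies at chr4:117567091-117587604 on the minus strand.

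The transportins Tnpo1 and Tnpo2 are close relatives that carry RNA-binding proteins with a proline-tyrosine signal. Tnpo2 was at 125, 121 and 124 CPM in the controls and at 109.7, 105, 104 and 108 CPM in the tumors labelled WDR11OE. The distance between the groups was small, with a log2 fold change of -0.21 (SE 0.05, 95% interval from -0.33 to -0.08), but so was the spread within them. Tnpo2 no longer passed without control replicate 1 or without WDR11OE replicate 1, 2 or 3. Tnpo1 was at 424, 357 and 478 CPM in the controls and at 473, 468, 474 and 462 CPM in the tumors labelled WDR11OE, inside the range of the controls. Its log2 fold change was 0.16 (SE 0.11, 95% interval from -0.09 to 0.41). Tnpo2 (chr8:87560814-87581482, plus strand) overlaps an antisense noncoding RNA, A230103J11Rik, by 543 exonic bases, and Tnpo1 (chr13:99608974-99696339, minus strand) shares 5.23% of its 50-base stretches with the pseudogene Gm6493.

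Ipo11 imports ubiquitin-conjugating enzymes and was the member with higher levels in the tumors labelled WDR11OE. The controls were at 89.7, 88.2 and 93.5 CPM and WDR11OE replicates 1 to 4 at 141, 141, 129 and 125 CPM. All 4 tumors labelled WDR11OE were above all 3 controls, which lay close together. The means were 90.5 ± 2.74 CPM (SD, n = 3) and 134 ± 8.46 CPM (SD, n = 4), a 1.48-fold higher level, with a log2 fold change of 0.57 (SE 0.07, 95% interval from 0.40 to 0.73). In the count table Ipo11 stands as Ipo11.13.n, which joins 2 overlapping annotation entries at chr13:107584519-107726995 on the minus strand. Its right neighbor Dimt1, an rRNA methyltransferase 10213 bases away on the opposite strand, was also higher, at 26.4 to 27.4 CPM against 42.7 to 50.8 CPM (log2 fold change 0.78, SE 0.08, adjusted p = 0.00105 by edgeR).

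Kpnb1, the importin beta of the classical pathway, did not pass the test and its groups overlapped. It was at 568, 591 and 701 CPM in the controls and at 574, 572, 548 and 469 CPM in the tumors labelled WDR11OE. Control replicate 3 was the highest tumor and WDR11OE replicate 4 the lowest, while the other 5 lay between 548 and 591 CPM. The log2 fold change was -0.20 (SE 0.12) with a 95% interval from -0.47 to 0.07. Kpnb1 (chr11:97021028-97049195, minus strand) overlaps the antisense transcript Gm11583 by 466 exonic bases.

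Ipo5, Ipo7 and Ipo8, which carry ribosomal proteins, histones and Argonaute proteins between them, did not pass either. Ipo5 (chr14:121310416-121347264, plus strand) was at 360.4, 391 and 469 CPM in the controls and at 439.5, 459, 415 and 387 CPM in the tumors labelled WDR11OE. Ipo7 (chr7:117161939-117198628, plus strand) was at 361, 345 and 405 CPM against 445, 424, 438 and 392 CPM. Only WDR11OE replicate 4 lay within the range of the controls for Ipo7, whereas all 4 tumors labelled WDR11OE did so for Ipo5. Ipo8 (chr6:148719205-148779989, minus strand), the closest relative of Ipo7, was at 69.2, 74.5 and 82.8 CPM against 75.6, 74.2, 74.0 and 74.6 CPM. Its tumors labelled WDR11OE were nearly equal and sat in the middle of the controls. The log2 fold changes were 0.06 for Ipo5 (95% interval from -0.20 to 0.33), 0.20 for Ipo7 (from -0.01 to 0.40) and -0.02 for Ipo8 (from -0.19 to 0.15).

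**Figure D2:**
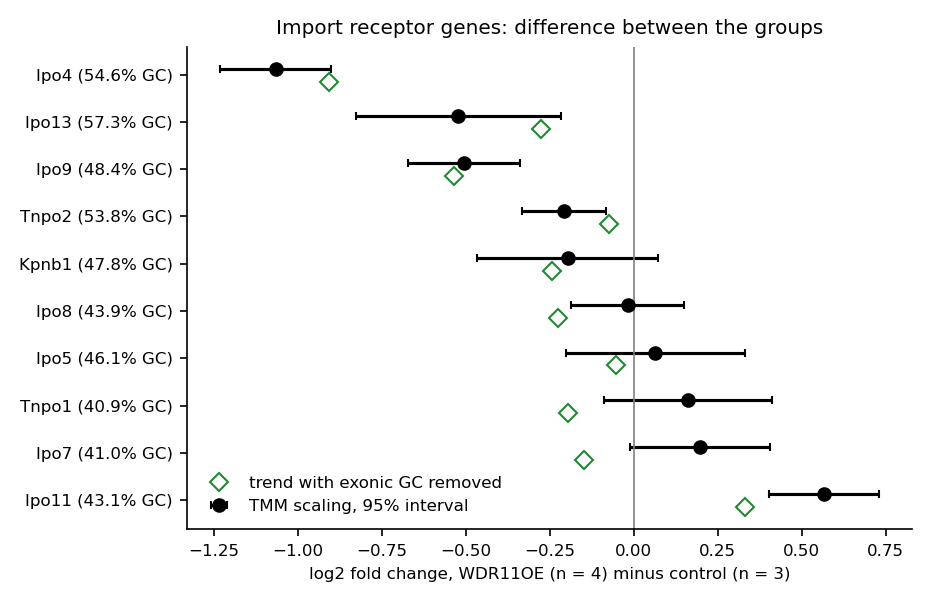
Log2 fold change, WDR11OE (n = 4) minus control (n = 3), of each import receptor on the x axis, with 95% intervals, and the value with the GC trend removed. Ipo4 is at -1.07 and Ipo11 at 0.57, and with the trend removed they are at -0.91 and 0.33.

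Base composition moved with the comparison. Across 14766 genes with an average log2 CPM above 0, the log2 fold change had a Spearman rho of -0.39 with exonic GC content, a description over genes, which are not replicates and share the same libraries. The 4 members with the highest exonic GC content were the lower ones (Ipo13 57.3%, Ipo4 54.6%, Tnpo2 53.8% and Ipo9 48.4%), and Ipo11 had 43.1%. When a GC trend was removed from each tumor, Ipo4 and Ipo9 still passed as lower, with log2 fold changes of -0.91 and -0.54, while Ipo13 (-0.28), Tnpo2 (-0.073) and Ipo11 (0.33) no longer passed. The 2 lower and 0 higher members then stand beside 9.61% and 6.41% of all genes. Nothing is read from these calls either, since the members were chosen with this comparison known in the same tumors. Over all genes, the split of 2744 lower and 3150 higher calls became 1671 lower and 1114 higher. Ipo5 (-0.05), Ipo7 (-0.15) and Tnpo1 (-0.20) changed sign without the trend, and they did not pass with it or without it. Whether the trend is technical was not tested.

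**Figure D3:**
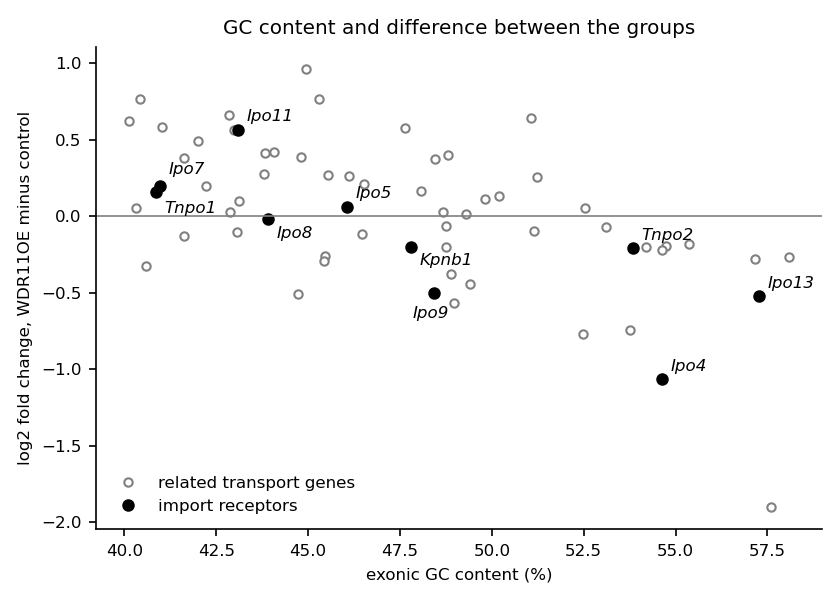
Log2 fold change, WDR11OE (n = 4) minus control (n = 3), on the y axis against exonic GC content in percent on the x axis, for the 10 import receptors (filled, named) and the related transport genes (open), with 1 point a gene. Ipo4, at 54.6% GC, lies at -1.07, and Ipo11, at 43.1% GC, lies at 0.57.

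Without control replicate 1 and WDR11OE replicate 4, the tumors with the highest neuron marker sums of their groups, Ipo4 was at -1.13, Ipo9 at -0.56, Ipo11 at 0.55 and Ipo13 at -0.74 on the log2 fold change scale. This choice was made after seeing the data. In that fit 3 members were lower and 1 was higher, Tnpo2 being the gene that no longer passed. Over all 17368 genes tested in that fit, 3098 were lower and 2435 higher.

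The SD of log2 CPM within groups had a median of 0.09 over the 10 members, from 0.03 to 0.19. It had a median of 0.19 over 14806 genes with an average log2 CPM above 0, which were not matched to the members in level. The low spread was not particular to the members. Among the 10 other beta family receptors described below, this SD ran from 0.05 (Xpo6) to 0.19 (Ranbp17). Whether the spread of the members differs from that of genes at the same level was not tested. The summed level of the 10 members was 2565 ± 235 CPM (SD, n = 3) in the controls and 2460 ± 107 CPM (SD, n = 4) in the tumors labelled WDR11OE. The mean of the tumors labelled WDR11OE lay within the range of the controls, 2418 to 2836 CPM. WDR11OE replicate 4, at 2306 CPM, was below every control. Ipo4 made up 6.32% ± 0.25 (SD, n = 3) of this sum in the controls and 3.14% ± 0.16 (SD, n = 4) in the tumors labelled WDR11OE.

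To set the receptors beside each other, levels were divided by the exon length of each gene, as CPM per kilobase. Over the 7 tumors the order was Ipo7 at 129 ± 12.1 (SD), Ipo5 at 90.9 ± 8.78, Kpnb1 at 87.2 ± 10.4, Tnpo1 at 52.2 ± 5.12, Ipo9 at 24.0 ± 4.70, Tnpo2 at 22.8 ± 1.82, Ipo4 at 21.2 ± 8.51, Ipo11 at 19.9 ± 4.14, Ipo13 at 11.3 ± 2.57 and Ipo8 at 7.06 ± 0.380 CPM per kilobase. Neighbors in this order were compared by a two-sided exact permutation test over all sign flips of the paired differences in 7 tumors, where the smallest p possible is 0.0156, adjusted over 9 pairs. Ipo7 was above Ipo5, Kpnb1 above Tnpo1, Tnpo1 above Ipo9, Ipo11 above Ipo13 and Ipo13 above Ipo8 in 7 of 7 tumors, each with an adjusted p of 0.0281 by the exact test. Ipo5 and Kpnb1 (adjusted p = 0.402, exact), Ipo9 and Tnpo2 (0.457), Tnpo2 and Ipo4 (0.402) and Ipo4 and Ipo11 (0.984) did not pass. This spread includes the distance between the groups, and the group means of all 4 pairs stood in opposite order in the controls and in the tumors labelled WDR11OE. Ipo4 was above Tnpo2 in the controls, at 30.2 ± 1.84 against 24.7 ± 0.402 CPM per kilobase (SD, n = 3), and below it in the tumors labelled WDR11OE, at 14.4 ± 0.754 against 21.4 ± 0.512 (SD, n = 4). Ipo9 was above Tnpo2 in the controls, at 28.9 ± 1.55, and close to it in the tumors labelled WDR11OE, at 20.4 ± 1.02.

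The abundant receptors were thus Ipo7, Ipo5, Kpnb1 and Tnpo1, but their order depends on the lengths used. The annotation gives Ipo7 only 3117 exonic bases, nearly all coding, while the other members have untranslated exons as well. With coding length in place of exon length, Kpnb1 came first, then Tnpo1, Ipo7 and Ipo5, and 4 of the 10 genes kept their rank. Ipo8 then ranked 9 and Ipo13 10, so the order of this pair, which passed the exact test, turned around. In CPM without any length, Ipo8 (69.2 to 82.8) was also above Ipo13 (35.7 to 64.4) in all 7 tumors. Ipo4 and Ipo11 traded places between the groups: Ipo4 ranked 5 in the controls at 30.2 ± 1.84 CPM per kilobase (SD, n = 3) and 8 in the tumors labelled WDR11OE at 14.4 ± 0.754 (SD, n = 4), whereas Ipo11 ranked 8 at 15.6 ± 0.472 and 5 at 23.1 ± 1.46.

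**Figure D4:**
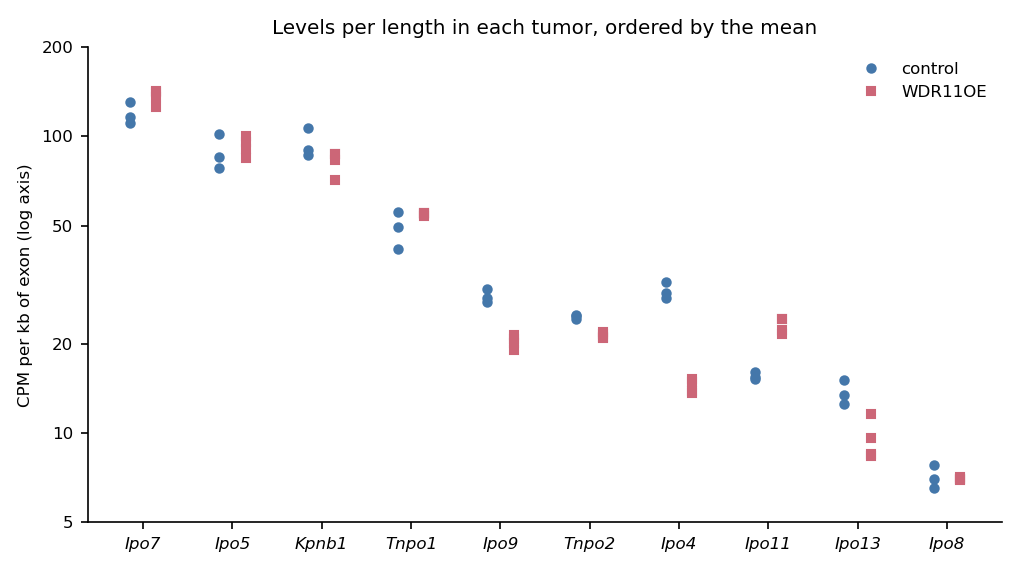
Level of each import receptor in CPM per kilobase of exon on a log axis, ordered by the mean over 7 tumors, with 1 point a tumor for control (n = 3) and WDR11OE (n = 4). Ipo7 stands highest at a mean of 129 and Ipo8 lowest at 7.06, and the points of Ipo4 and Ipo11 are split by group in opposite directions.

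The rest of the transport pathway was described with 55 genes in 4 lists, which the choice of the members did not use. Of 54 genes tested, 10 were lower and 16 higher in the tumors labelled WDR11OE at an adjusted p under 0.05, and 28 did not pass, beside 15.8% lower and 18.1% higher among all genes. Their median log2 fold change was 0.06, close to the 0.08 of all genes. With the GC trend removed, 8 were lower and 3 higher, of which 7 and 3 were among the calls made with the trend, and all genes gave 9.61% and 6.41%. The counts also moved with single tumors: 6 were lower without control replicate 2, control replicate 3 or WDR11OE replicate 1, and 9 were higher without WDR11OE replicate 1 or 2.

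Among the importin alpha adaptors, which link Kpnb1 to its cargo, 1 of 6 tested genes fell and 1 rose. Kpna2 rose from 80.8, 93.9 and 127 CPM in the controls to 215, 204, 193 and 173 CPM (log2 fold change 0.96, SE 0.16, adjusted p = 0.00431 by edgeR). Kpna4 fell from 107, 112 and 111 CPM to 84.6, 87.3, 93.2 and 85.8 CPM (log2 fold change -0.33, SE 0.06, adjusted p = 0.00570 by edgeR). Both adaptors had groups that did not overlap, and both still passed with the GC trend removed, at 0.80 and -0.70. Kpna7 was too low to be tested.

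Of the other 10 beta family receptors, most of which export cargo, 2 fell and 4 rose, and their median log2 fold change was 0.25. Xpo1, the exporter of proteins with leucine-rich signals, rose from 317, 349 and 364 CPM to 557, 575, 516 and 474 CPM (log2 fold change 0.63, SE 0.10, adjusted p = 0.00345 by edgeR). Cse1l, which returns importin alpha to the cytoplasm, rose from 194 ± 19.4 to 273 ± 11.2 CPM (log2 fold change 0.50, SE 0.09, adjusted p = 0.00483 by edgeR), and Ranbp6, a relative of Ipo5, from 20.5 ± 0.624 to 34.8 ± 2.07 CPM (0.77, SE 0.08, adjusted p = 0.00106). These 3 genes no longer passed with the GC trend removed. Xpo7 fell from 168 ± 5.02 to 118 ± 9.61 CPM (log2 fold change -0.51, SE 0.08, adjusted p = 0.00301 by edgeR) and Xpo6, the exporter of actin, from 128 ± 5.61 to 94.5 ± 2.57 CPM (-0.44, SE 0.06, adjusted p = 0.00186). Both of these exporters passed without the trend as well.

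Of the 8 genes of the Ran cycle, which sets the direction of transport, 1 fell, 1 rose and 6 did not pass, and their median log2 fold change was -0.14. Ranbp2, the large nucleoporin on the cytoplasmic side that binds Ran, rose from 354, 342 and 367 CPM to 510.4, 514, 542 and 560.0 CPM (log2 fold change 0.59, SE 0.08, adjusted p = 0.00176 by edgeR). Nutf2, which brings Ran back into the nucleus, fell from 48.3, 55.6 and 64.5 CPM to 46.1, 47.3, 41.8 and 37.5 CPM (log2 fold change -0.38, SE 0.12, adjusted p = 0.0487 by edgeR). The lowest control for Nutf2 was only just above the highest tumor labelled WDR11OE, and neither Nutf2 nor Ranbp2 passed with the GC trend removed.

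Of the 30 nucleoporins, 6 fell and 10 rose, with a median log2 fold change of 0.11. Pom121, a membrane nucleoporin that anchors the pore, was the only related gene past 2-fold, from 105, 109 and 105 CPM in the controls to 18.6, 24.5, 39.1 and 31.5 CPM (log2 fold change -1.90, SE 0.23, adjusted p = 0.00140 by edgeR). Nup214, on the cytoplasmic face, fell from 101 ± 3.86 to 58.9 ± 7.31 CPM (log2 fold change -0.77, SE 0.10, adjusted p = 0.00184 by edgeR). The inner ring subunit Nup188 fell from 158 ± 11.9 to 94.6 ± 7.32 CPM (-0.74, SE 0.09, adjusted p = 0.00129 by edgeR). All of these 3 passed with the GC trend removed. Of the outer ring subunits, Nup37 rose from 24.0 ± 3.57 to 40.8 ± 1.73 CPM (log2 fold change 0.76, SE 0.11, adjusted p = 0.00222 by edgeR), Nup43 by 0.66 (SE 0.10, adjusted p = 0.00278) and Sec13, which also serves in vesicle coats, by 0.64 (SE 0.11, adjusted p = 0.00426). Nup37 and Sec13 passed without the trend and Nup43 did not.

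**Figure D5:**
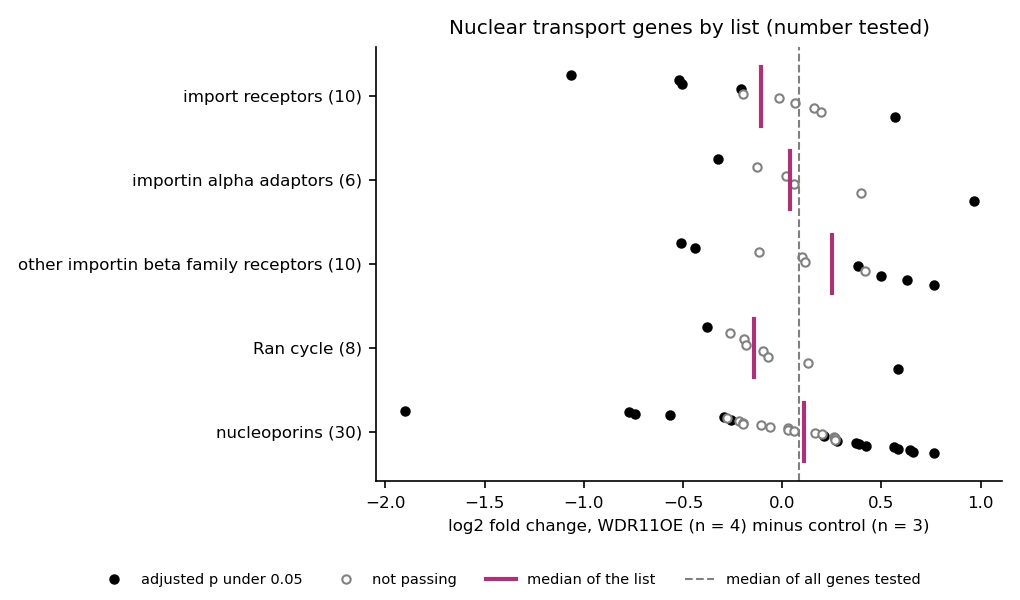
Log2 fold change, WDR11OE (n = 4) minus control (n = 3), of the 10 import receptors and of the 54 related genes tested, in 5 rows, with 1 point a gene. Filled points passed an adjusted p under 0.05, short lines are the median of each list and the dashed line is the median of all genes at 0.08, and the lowest points are Pom121 at -1.90 and Ipo4 at -1.07.

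The genes most like Ipo4 over the 7 tumors were Tmem39b, Lrdd, Vps26b, Bag6 and Fkbp1a, each with a Pearson r of log2 CPM from 0.997 to 0.999 among 14806 genes. These values follow from the distance between the groups, since the 7 tumors fall into separate groups for Ipo4, and are a description. Bag6, for one, was at 189.5 to 205 CPM in the controls and at 112 to 124 CPM in the tumors labelled WDR11OE. Among the members, Ipo9 was nearest in rank, at 610 of the 14806 genes, then Tnpo2 at 1126, and Ipo11 was nearly last at 14132.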

How the data were processed

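RNA-seq gene counts of 7 mouse G3 MBs, 4 labelled WDR11OE and 3 controls, were analysed. The authors mapped reads to NCBIM37.67 (mm9) with their StrongArm pipeline and deposited raw counts per gene from HTSeq on a GENCODE annotation. The submitters' processing notes also list CASAVA 1.7, STAR and BWA. The labels name a TruSeq RNA kit and the methods stranded total RNA, and the strand setting is not given in the sources used here. No columns of per-sample values were left out, and the human WDR11 row was kept out of library sizes and tests.

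Counts were filtered with filterByExpr, scaled by TMM and tested in edgeR 4.0.16 (R 4.3.3) with the quasi-likelihood test, two-sided, on condition alone, with Benjamini-Hochberg adjustment over 17388 genes. CPM values are TMM-scaled, and log2 CPM values used a prior count of 2. The limit on average log2 CPM was 0 and the stricter call asked for a 2-fold change. The typical biological coefficient of variation was 34.5%. Reads carry no molecular identifiers, so counts measure reads and not molecules.

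Coordinates, exon length and GC content came from the GENCODE annotation of NCBIM37 given here, which matched 97.8% of the rows and may differ slightly from the annotation of the authors. Exons were compared in 50-base stretches. Promoters came from RefSeq on GRCm38.p6, and no coordinates were converted between builds. GC trends were loess fits per tumor with a span of 0.5.

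The members and gene lists were chosen with earlier results of these data known. Named were all members, up to 3 lower and 3 higher genes of each related list with the smallest p, the 5 genes most like Ipo4 by log2 CPM and the 5 by deviations from the group means, and the nearest annotated neighbors of members. The second of these sets of 5 is not reported here.

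The fit was tested on simulated data with 200 of 17177 genes changed by 1.50 on the log2 scale, where edgeR recovered 67.5% and 3.57% of calls were false. In the tumors 33.9% of genes passed, and the largest change of a member was -1.07. No GC trend was simulated, so these rates do not describe the calls made here. Alternatives were limma 3.58.1 with voom, DESeq2 1.42.0, other scalings and filters, GC trend removal, summing WDR11OE replicates 1 and 2, whose titles share a number, and leaving out each tumor.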

Additional observations from a re-analysis of the deposited data

How the results depend on the processing

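Of 229 values recomputed, 200 stayed within the spread of the tumors or within 1.5 times the count, 29 moved further, and no called value changed sign. With the GC trend removed, the members gave 2 lower and 0 higher calls and the related genes 3 higher calls, and log2 fold changes became -0.91 (Ipo4), -0.15 (Ipo7), -0.23 (Ipo8), 0.33 (Ipo11), -0.28 (Ipo13), -0.20 (Tnpo1) and -0.073 (Tnpo2). With WDR11OE replicates 1 and 2 summed, related genes gave 6 lower and 9 higher calls and Tnpo2 was at -0.26, without its call. Tnpo2 was at -0.26 with DESeq2, -0.17 with upper quartile scaling and -0.26 with no filter. Both of the next choices were made after seeing the data. Summing Ipo4 and Tm9sf1 gave -0.90, and the fit without control replicate 1 and WDR11OE replicate 4 gave -0.12 (Ipo8), -0.74 (Ipo13) and -0.25 (Tnpo2). For the order of levels, 4 of 10 ranks held with coding length and 5 of 10 in the control tumors alone. The cause of these shifts was not tested.

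Leaving out each tumor in turn gave 3 to 4 lower and 1 higher member, 6 to 10 lower and 9 to 18 higher related genes, and log2 fold changes from -1.13 to -1.02 for Ipo4 and from -0.26 to -0.20 for Tnpo2. Over all genes, higher calls went from 3150 to 1114 with the GC trend removed, 1628 with WDR11OE replicates 1 and 2 summed and 2092 with no filter, lower calls from 2744 to 1671 with the trend removed, and leaving out 1 tumor gave 2011 to 2867 lower and 1559 to 2984 higher calls. The median log2 fold change of all genes, 0.08, was -0.01 without WDR11OE replicate 4. No paired analysis was possible because the labels carry no replicate numbers. With 3 and 4 tumors of a single line, small differences such as that of Tnpo2 rest on few tumors.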

Other observations

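The nearest annotated neighbors of the import receptors were compared as well. Beside Tm9sf1, Rec8 and Dimt1, the neighbors that passed an adjusted p under 0.05 by edgeR were Caprin2, to the right of Ipo8, at 14.6 to 17.5 CPM in the controls and 22.6 to 28.0 CPM in the tumors labelled WDR11OE (log2 fold change 0.65, SE 0.12, adjusted p = 0.00549), Farp1, to the right of Ipo5, at 33.4 to 40.0 against 15.8 to 28.8 CPM (-0.70, SE 0.20, adjusted p = 0.0297), and Tbkbp1, to the left of Kpnb1, at 15.2 to 20.4 against 10.9 to 14.9 CPM (-0.52, SE 0.17, adjusted p = 0.0467). Ipo5, Ipo8 and Kpnb1 themselves did not pass. Snora23, a small nucleolar RNA within Ipo7, was at 59.4 to 60.5 CPM in the controls and at 45.0 to 60.6 CPM in the tumors labelled WDR11OE, and its groups overlapped. The other neighbors tested did not pass.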
